A study of Drosophila melanogaster with 12 samples.

Results

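Secreted and membrane proteins enter the endoplasmic reticulum (ER) through a short chain of machines, and the 34 genes described here encode the core of that chain and of the vesicle coats that follow it. The signal recognition particle (SRP) binds a signal peptide as it leaves the ribosome, the SRP receptor takes the ribosome to the ER membrane, and the Sec61 channel passes the chain across. The ER membrane complex (EMC) inserts membrane segments that the channel does not handle well. The COPII coat then buds cargo vesicles from the ER, and the COPI coat returns vesicles from the Golgi to the ER. These roles are best known from yeast and mammalian cells. The larval salivary gland of the fly is known for its heavy secretion of glue proteins, which ends before the prepupal stages studied here, when the gland approaches its destruction.

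The rule that picks the genes uses names alone: 24 listed symbols and every symbol made of EMC and a number, which added 10. All 34 were found among the 17807 genes of the count table, and all 34 were among the 7584 genes with enough counts to be tested. By role they are 6 SRP proteins, 2 SRP receptor subunits, 4 genes of the Sec61 channel and its partner TRAM, 10 EMC genes, 6 COPII genes and 6 COPI genes. They are spread over the genome. By the Ensembl annotation of the BDGP6 assembly, Sar1 lies on arm 3R at 22356685 to 22360711, Sec23 on 3R at 5649065 to 5652629, Sec13 on 3R at 23356278 to 23358531 and gammaCOP on 3R at 31572143 to 31575707, all on the plus strand. Sec24CD lies on 2L at 2231106 to 2236844, zetaCOP on 3L at 16671664 to 16673555 and alphaCOP on 3L at 1641066 to 1645199, all on the minus strand. EMC10 lies on 3L at 21574131 to 21575874 and TRAM on X at 935232 to 937822, both on the plus strand. Besides EMC2A and EMC2B, described below, the pairs within 10 kb of each other were Srp72 with Srp14 and Sec61alpha with epsilonCOP.

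The table holds read counts per gene for 12 libraries of total RNA from salivary glands of Drosophila melanogaster taken 12 or 14 h after pupariation. Each of the 4 groups has 3 libraries. Every animal carried w1118 and fkh>GFP, a green fluorescent reporter driven by a regulatory region of fork head, which is active in the salivary gland. Controls carried 1 copy of E93Δ1 over a wild-type copy, so they were heterozygous and not free of E93 alleles. Mutants carried E93Δ12 over E93Δ13. E93, listed as Eip93F, is a transcription factor induced by the steroid hormone ecdysone, and the study asked how its loss alters hormone-regulated expression in late prepupal glands. Whether replicate libraries were made from different animals or dissections is not stated in the labels. The p-values therefore measure only the spread between these libraries, which may be technical. In whole glands, fewer cells of a type and less RNA per cell cannot be told apart.

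Libraries held 6977403 to 9497317 counts. Levels are given as CPM, edgeR's depth-scaled count, after TMM, a correction for shifts in composition between libraries. The limit that a count of 0 allows, 3 counts, was 0.281 to 0.519 CPM, which covers counting error only. Eip93F itself read 1720 ± 482 CPM in the 12 h controls and 4080 ± 222 CPM in the 12 h mutants, and 845 ± 61.4 against 1990 ± 32.7 CPM at 14 h (SD, n = 3). Gene totals were thus higher in every library labelled mutant. They do not show where in the gene the reads lay and do not check the lesions, so "mutant" below means a library labelled so. The gland markers sage, fkh, CrebA and Sgs3 had counts in all 12 libraries. One library stood apart: on the first principal component, with 53.5% of the variance, the 12 h control replicate 1 lay at -3.2, the other 12 h controls at -55.2 and -62.1, and the 14 h controls at 60.4 to 64.4. Calls that change without it are given below. Gut-type genes were high in some mutant libraries. A junction protein of the gut, mesh, read 135, 12.5 and 1.13 CPM in the 12 h mutants and 1.94, 56.7 and 2.81 CPM in the 14 h mutants, against at most 1.59 CPM in the controls. The libraries at 135 and 56.7 CPM are called gut-high below. LManII, a lysosomal mannosidase in the same list, was instead high in all 3 of the 14 h mutants, with 84.7, 89.9 and 83.2 CPM against 9.22 to 15.9 CPM in the other 9 libraries. The summed level of the 8 gut markers ran from 11.9 to 224 CPM in the 12 h mutants, 86.9 to 191 in the 14 h mutants, 13.7 to 18.3 in the 12 h controls and 15.6 to 16.8 in the 14 h controls. betaTry, a digestive protease of the gut, was at 0 in 11 of 12 libraries. The part of these in the results was not tested beyond leaving libraries out.

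Per kb of exon, the 34 genes were expressed at ordinary levels for this tissue. Their median over all libraries was 4.77 CPM per kb, and the median of all tested genes with a known length was 4.54 CPM per kb, with 18 members above it and 16 below. Within each machine except the SRP receptor the levels were far from equal. Among the SRP proteins the mean ran from 2.91 CPM per kb for Srp72 to 20.3 for Srp19, among the COPI genes from 4.48 for alphaCOP to 13.9 for deltaCOP, and in the channel from 2.04 for Sec61gamma to 6.46 for Sec61alpha. The COPII coat spanned a 15.8-fold range, from 1.86 CPM per kb for Sec24CD to 29.4 for Sar1, with Sec24AB next to the top at 28.1. In the EMC the range was 13.5-fold, from 1.87 for EMC8-9 to 25.2 for EMC7. The receptor subunits were nearly equal, with 2.31 CPM per kb for SrpRbeta and 2.67 for SrpRalpha.

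**Figure D1:**
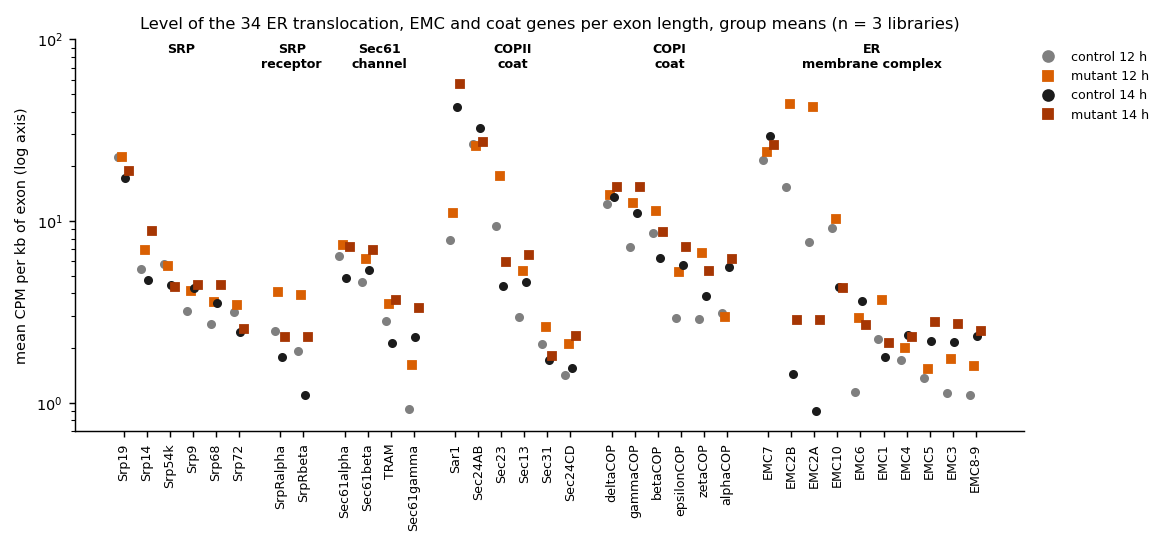
Mean level of each of the 34 genes in CPM per kb of exon (log axis), one symbol per group of 3 libraries, ordered by level within each machine. The means over all libraries span 1.86 CPM per kb (Sec24CD) to 29.4 (Sar1), and EMC2A, EMC2B and Sar1 have the widest spread between times.

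Tested across all genes with edgeR's quasi-likelihood F test and Benjamini-Hochberg adjustment, 7 of the 34 were higher and 0 lower in mutants than in controls at 12 h. Of all tested genes, 7.94% were called higher and 7.87% lower at that time. The median log2 fold change of the 34 genes was 0.4, that of all tested genes was 0.01, and 30 of the 34 lay above 0. The 7 were EMC2A, EMC2B, zetaCOP, Sec23, Sec13, gammaCOP and Sec24CD. At 14 h, 3 were higher and 0 lower, namely EMC2A, TRAM and Sec24CD, where 8.29% of all tested genes were called higher and 6.91% lower. The median there was 0.35, that of all tested genes was 0.05, and 28 of the 34 lay above 0. EMC2A and Sec24CD were called at both times, which is 2 of the 7 calls at 12 h and 2 of the 3 calls at 14 h. With both gut-high libraries left out (replicate 1 of the 12 h and replicate 2 of the 14 h mutants), 4 members were called at 12 h and 0 at 14 h. Of all tested genes, 8.65% and 10% were then called in either direction, against 15.8% and 15.2% with all libraries. The medians of the 34 genes were then 0.48 and 0.34.

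Summed over the 34 genes, the level was 445, 437 and 432 CPM in the 12 h controls and 616, 622 and 600 CPM in the 12 h mutants. At 14 h the sums were 523, 497 and 504 CPM in controls and 524, 590 and 605 CPM in mutants. The groups did not overlap at either time, although they nearly met at 14 h. The machines had unequal parts in the 12 h sums. Means in controls and mutants were 70 and 158 CPM for the EMC, where EMC2A had 9.45 and 52.2 and EMC2B 18.8 and 53.5 CPM. They were 193 and 230 CPM for COPII, 97.8 and 134 for COPI and 44.3 and 47.7 for SRP. The channel had 25.2 and 30.6 CPM and the SRP receptor 7.3 and 12.8 CPM. Of the single genes, 11 had all 3 mutant libraries above all 3 controls at 12 h and 0 had all below, where 14% of all tested genes were apart upward and 13.7% downward. At 14 h, 13 were apart upward and 1, Sec24AB, downward, against 22.2% and 20.3% of all tested genes. Of 8 markers of the gland, 4 were also called higher in the 12 h mutants, fkh, PH4alphaSG1, Sgs7 and Sgs8, where 7.94% of all tested genes were. Without the gut-high 12 h mutant library fkh did not pass, as given below. The gland factor sage gave -1.12 (edgeR adjusted p = 0.155), and -0.07 without the 12 h control replicate 1, where it read 153 CPM against 32.2 and 37.6 CPM in the other 12 h controls. The summed level of the list was 185 to 224 CPM in the 12 h mutants and 222, 105 and 106 CPM in the 12 h controls. At 14 h 1 of the 8 markers was called higher and 0 lower, where 8.29% of all tested genes were called higher. Their summed level was then 155 to 177 CPM in mutants, below the 186 to 213 CPM of controls. That sum leans on sage, which averaged 105 CPM in the 14 h controls and 65.6 CPM in the 14 h mutants. Of the 8 markers, 6 had log2 fold changes above 0 at 14 h and 2 below, with a median of 0.3. The part of these differences in the values of the 34 genes was not tested.

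**Figure D2:**
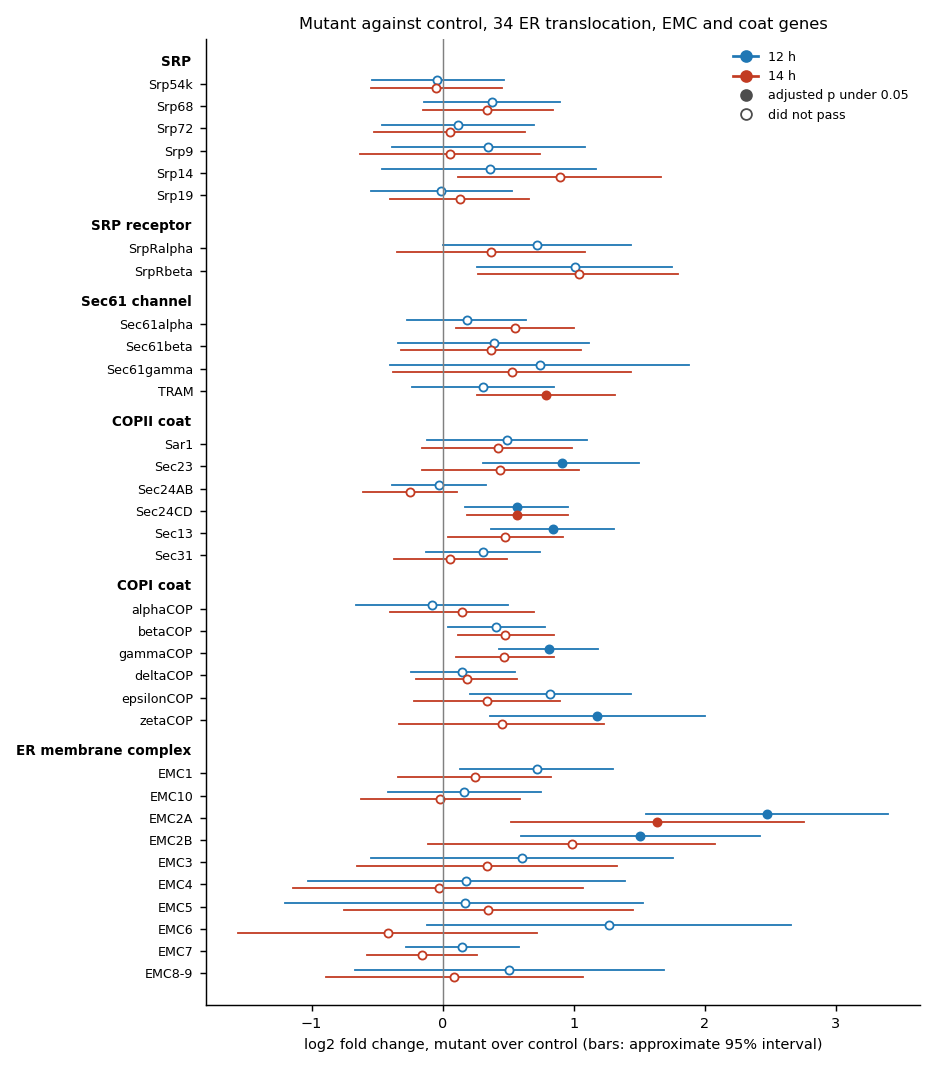
Log2 fold change of mutant over control for the 34 genes at 12 h (blue) and 14 h (red), with approximate 95% intervals, from 3 libraries a group; filled points passed an adjusted p of 0.05. Most points lie right of 0 at both times, and EMC2A lies farthest right at 2.48 and 1.64.

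No member passed the test of whether its genotype effect differed between 12 and 14 h. That test called 0 of the 34 in edgeR and 0 in DESeq2, with 0 at an unadjusted p under 0.05 in edgeR, where 2.72% of all tested genes were called, 1.75% upward and 0.963% downward. The median difference, 14 h effect minus 12 h effect, was -0.21, and that of all tested genes was 0.05. The intervals were wide for low genes: EMC6 gave -1.69 with an approximate 95% interval of -3.49 to 0.11, and Sec24CD gave 0.01 with one of -0.55 to 0.56. A call at 12 h without one at 14 h, or the reverse, therefore does not show that the effects differ.

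Between 12 and 14 h, 7 of the 34 rose and 5 fell in controls, and 2 rose and 7 fell in mutants. Of all tested genes 43.2% were called in controls, 20.8% upward and 22.4% downward, and 45.1% in mutants, 22.6% upward and 22.4% downward. The libraries of the 2 times did not overlap for 11 members upward and 9 downward in controls, against 30.4% and 26% of all tested genes. In mutants they did not overlap for 6 upward and 8 downward, against 29.6% and 25.4%. Median changes were 0.16 for the 34 and 0.12 for all tested genes in controls, and 0.1 and 0.14 in mutants. Called in both genotypes were 6 genes, which is 6 of 12 calls in controls and 6 of 9 in mutants: Sar1 and alphaCOP rose, and Sec23, EMC10, EMC2A and EMC2B fell. These counts rest on the scaling, since TMM factors ran from 0.7534 to 0.9422 at 12 h and from 1.126 to 1.261 at 14 h. Scaled by library size alone, the median of all tested genes moved up by 0.51 in both genotypes, and 15 members rose and 2 fell in controls, and 13 rose and 4 fell in mutants. Of all called genes 74.3% in controls and 75% in mutants were then higher, against 48.1% and 50.2% with TMM. Changes with time are given below relative to the TMM scale.

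Without the 12 h control replicate 1, which stands apart, the same test changed several calls. At 12 h the genotype differences of Sec24CD (0.54, adjusted p = 0.0882) and zetaCOP (1.15, adjusted p = 0.087) no longer passed, and those of Sar1 (0.8, adjusted p = 0.045) and epsilonCOP (0.98, adjusted p = 0.0443) did. Over time in controls, Sec13 (0.55, adjusted p = 0.0657) and EMC6 (1.81, adjusted p = 0.0549) no longer passed, while Srp54k (-0.62, adjusted p = 0.0301), EMC1 (-0.62, adjusted p = 0.0427) and EMC3 (1.44, adjusted p = 0.046) did. That library is no part of the other comparisons except through the shared spread, and there EMC2B (0.95, adjusted p = 0.0104) and betaCOP (0.44, adjusted p = 0.0451) passed at 14 h, and betaCOP passed over time in mutants (-0.44, adjusted p = 0.0231). With library size alone and all libraries, the time changes of Srp54k and EMC1 in controls and of betaCOP in mutants had the opposite sign, at 0.17, 0.22 and 0.13.

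**Figure D3:**
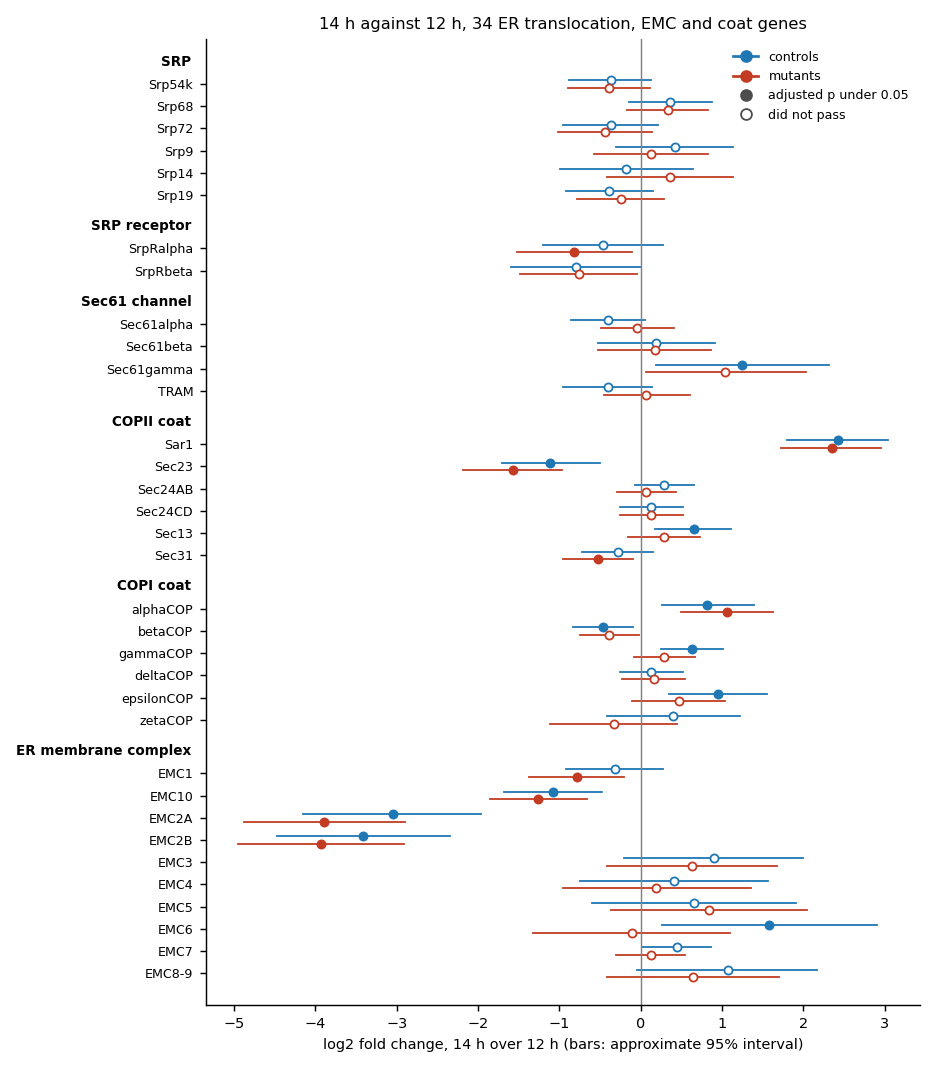
Log2 fold change of 14 h over 12 h on the TMM scale for the 34 genes in controls (blue) and mutants (red), with approximate 95% intervals, from 3 libraries a group; filled points passed an adjusted p of 0.05. EMC2A and EMC2B lie far left and Sar1 far right in both genotypes; the fall of betaCOP in controls turns to 0.07 when only library size is used.

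With all libraries, none of the 6 SRP proteins passed any of the 5 tests. Srp19, which helps assemble the particle, was the most abundant of them per length, with 14.2, 16.3 and 13.7 CPM in the 12 h controls and 13.5, 14.3 and 16.1 CPM in the 12 h mutants. The 14 h values were 11.9, 9.94 and 12 CPM in controls and 8.87, 10.9 and 17.2 CPM in mutants. The groups overlapped at both times, and the genotype effects were -0.01 (interval -0.55 to 0.53) and 0.13 (-0.4 to 0.66). Srp72, the least abundant per length, read 8.84, 5.05 and 6.58 CPM in the 12 h controls and 5.61, 8.02 and 8.71 CPM in the 12 h mutants, then 6.04, 5.13 and 4.66 CPM in the 14 h controls and 5.61, 5.72 and 5.15 CPM in the 14 h mutants. Its groups overlapped, with genotype effects of 0.12 and 0.06. Srp54k, the GTPase that binds signal peptides, gave -0.04 and -0.05. Srp14, of the domain that slows translation, had the largest effect of the 6, 0.9 at 14 h (SE 0.33, edgeR adjusted p = 0.0956), where 17.7% of its exon length is shared with a gene on the opposite strand.

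Both receptor subunits read higher in mutants without passing the genotype tests. SrpRbeta, the membrane-bound GTPase subunit, read 1.92, 2.6 and 2.08 CPM in the 12 h controls and 4.17, 2.86 and 6.29 CPM in the 12 h mutants. In the 14 h controls the values were 1.09, 1.36 and 1.33 CPM, and in the 14 h mutants 2.96, 2.31 and 2.53 CPM. Every mutant library lay above every control of its time, at log2 differences of 1.01 (SE 0.32, edgeR adjusted p = 0.0547) and 1.04 (SE 0.33, adjusted p = 0.0548). SrpRalpha, the subunit that docks the particle, read 4.61, 5.34 and 5.36 CPM in the 12 h controls and 4.65, 8.45 and 12.1 CPM in the 12 h mutants. By 14 h the controls were at 3.86, 4.39 and 2.78 CPM and the mutants at 4.49, 4.73 and 5.06 CPM. The 12 h mutants spread widely. The fall from 12 to 14 h in mutants, by 0.82 on the log2 scale (SE 0.31, edgeR adjusted p = 0.0461), passed the test although the libraries overlapped, and the call was lost in 11 of 20 alternatives.

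In the channel, TRAM was the gene called between genotypes. TRAM, a membrane protein beside the channel that contacts entering chains, read 7.56, 8.37 and 5.19 CPM in the 12 h controls and 8.49, 10 and 7.74 CPM in the 12 h mutants, which overlapped. Values of 5.15, 5.96 and 4.89 CPM followed in the 14 h controls and of 7.24, 10.2 and 10.2 CPM in the 14 h mutants, which did not overlap. The 14 h difference was 0.79 on the log2 scale (1.73-fold, SE 0.23, edgeR adjusted p = 0.0367), and the call was lost in 8 of 20 alternatives. Sec61alpha, the pore itself, read 14.7, 13.8 and 12.6 CPM in the 12 h controls and 16, 18.5 and 12.4 CPM in the 12 h mutants. The 14 h values were 12, 9.52 and 9.66 CPM in controls and 16.2, 16.6 and 12.9 CPM in mutants. The 14 h groups were apart, at 0.55 (SE 0.19, edgeR adjusted p = 0.0785), and the 12 h groups overlapped, at 0.19 (interval -0.27 to 0.64).

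The small channel subunits had few counts. Sec61gamma, a tail-anchored clamp of the pore, read 1.15, 0.721 and 0.346 CPM in the 12 h controls, where the lowest library held 2 counts, and 1.76, 1.29 and 0.806 CPM in the 12 h mutants. In the 14 h controls the values were 2.08, 1.78 and 1.67 CPM, and in the 14 h mutants 2.96, 1.65 and 3.37 CPM. It rose from 12 to 14 h in controls by 1.25 (SE 0.46, edgeR adjusted p = 0.0447), a call lost in 11 of 20 alternatives, and gave 1.04 in mutants (adjusted p = 0.0633). Sec61beta, the remaining subunit, passed no test, with genotype effects of 0.39 and 0.37 and 2.42 to 6.13 CPM over all libraries.

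The largest changes of the 34 genes were in EMC2A and EMC2B, a pair of paralogs for the EMC subunit that forms the cytosolic platform of the complex. EMC2A read 3.97, 10.5 and 13.8 CPM in the 12 h controls and 51.8, 55.8 and 49 CPM in the 12 h mutants. By 14 h the controls were at 1.49, 0.418 and 1.44 CPM and the mutants at 2.55, 3.85 and 4.12 CPM. Mutants lay above controls at both times, and both groups were far lower at 14 h. The genotype difference was 2.48 at 12 h (5.57-fold, SE 0.4, edgeR adjusted p = 0.00161), passed under all 20 alternatives, and was 2.04 without the 12 h control replicate 1. At 14 h it was 1.64 (3.11-fold, SE 0.49, adjusted p = 0.0389), a call lost in 10 of 20 alternatives. With time, EMC2A fell by 3.05 in controls (8.28-fold, SE 0.47, adjusted p = 0.000313) and by 3.89 in mutants (14.8-fold, SE 0.43, adjusted p = 3.01e-05).

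EMC2B followed a similar course. It read 6.02, 25.8 and 24.6 CPM in the 12 h controls and 56.2, 53.8 and 50.3 CPM in the 12 h mutants. Values of 1.39, 1.78 and 2.11 CPM followed in the 14 h controls and of 3.06, 2.97 and 4.4 CPM in the 14 h mutants. Again every mutant library was above every control of its time, and the 12 h control replicate 1 was the lowest of its group. The 12 h difference was 1.51 (2.86-fold, SE 0.39, edgeR adjusted p = 0.0219), and 1.03 without that library (adjusted p = 0.00576). It did not pass when the 12 h mutant replicate 1 or 2 was left out, or without both gut-high libraries (1.48, adjusted p = 0.0757). The 14 h difference was 0.99 (SE 0.48, adjusted p = 0.201). EMC2B fell by 3.41 in controls (10.6-fold, SE 0.46, adjusted p = 0.000118) and by 3.93 in mutants (15.3-fold, SE 0.44, adjusted p = 3.42e-05), under all 20 alternatives. How multiply mapping reads were counted is not given in the sources used here, so the split of counts between these paralogs is uncertain. Their sum per length was 15.2 ± 11.8 times the median of the other 8 EMC genes in the 12 h controls and 32 ± 7.07 times in the 12 h mutants, and 0.926 ± 0.217 and 1.98 ± 0.115 times at 14 h (SD, n = 3). The 12 h controls spread from 4.77 in replicate 1 to 28 in replicate 3, which overlaps the mutants.

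The pair lies on chromosome arm 3R, EMC2B at 16990334 to 16991878 and EMC2A at 16994542 to 16996071, both on the minus strand (coordinates of the Ensembl annotation of the BDGP6 assembly), with 2664 bp between them. Because of their position, the genes within 10 kb were examined after these values had been seen, and they are described without a test of the region. Of 10 such genes 8 were tested. In both genotypes 6 of the 8 fell from 12 to 14 h: AhcyL2, CG18622, MESK4, asRNA:CR45213, CG31274 and CG3534. Of all tested genes 22.4% were called lower with time in each genotype. AhcyL2, named for likeness to adenosylhomocysteinase, averaged 383 ± 186 CPM in the 12 h controls, 861 ± 63.2 in the 12 h mutants, 43.9 ± 6.44 in the 14 h controls and 90.3 ± 10.9 in the 14 h mutants. CG18622 averaged 320 ± 142, 747 ± 71.1, 6.88 ± 3.95 and 17 ± 6.43 CPM in the same order (SD, n = 3). The log2 changes with time were -3.12 for AhcyL2 and -5.53 for CG18622 in controls, and -3.25 and -5.46 in mutants. Of the 6, AhcyL2, MESK4, asRNA:CR45213, CG31274 and CG3534 were also called higher in the 12 h mutants, and CG18622 gave 1.23 (edgeR adjusted p = 0.0622). At 14 h only AhcyL2 (1.04) and asRNA:CR45213 (2.1) of the 8 were called between genotypes, both higher. Of all tested genes 7.94% were called higher at 12 h and 8.29% at 14 h. The remaining genes, Sf3a1, a splicing factor subunit, and Irc, an immune-related catalase, were lower in the 12 h mutants, at -1.22 and -0.8. With time both were called lower in controls, at -1.64 and -0.64, and neither was called in mutants. The EMC2 changes were thus shared by neighbours that are not EMC genes, and the part this played in them was not tested. EMC2B shares 7.1% of its exon length with MESK4 on the opposite strand, and EMC2A shares none.

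**Figure D4:**
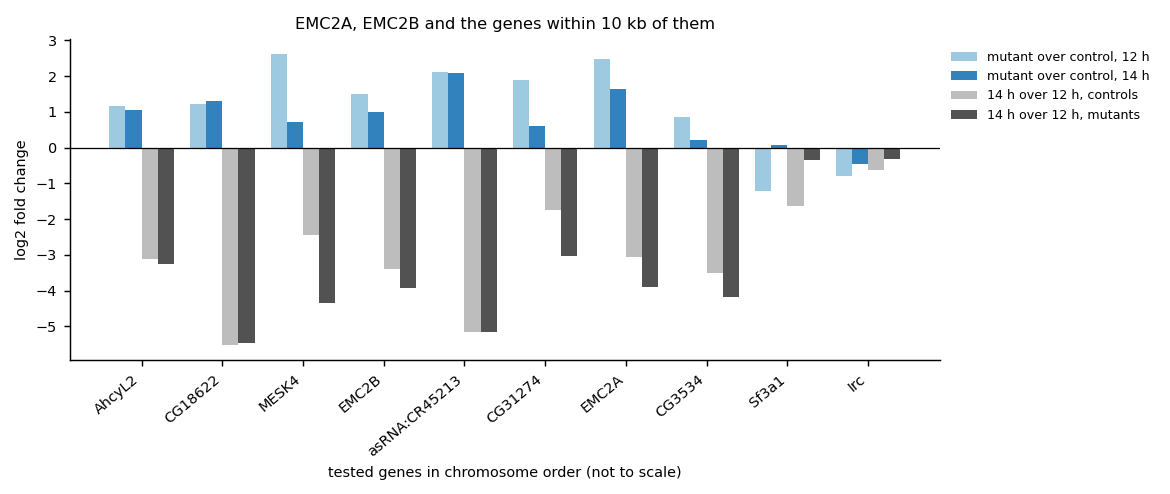
Log2 fold changes of EMC2A, EMC2B and the 8 other tested genes within 10 kb of them, in chromosome order, for the 4 comparisons of 3 against 3 libraries. Bars for 14 h over 12 h are negative for all 10 genes, and those for mutant over control at 12 h are positive for all but Sf3a1 and Irc.

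None of the other 8 EMC genes passed a genotype test. All 10 EMC genes had log2 differences above 0 at 12 h, and 6 of the 10 did at 14 h. Like EMC2A and EMC2B, EMC10 fell with time in both genotypes, and the fall of EMC1 from 12 to 14 h passed in mutants, as given below. EMC7, a lumenal subunit and the most abundant EMC gene per length, read 20.6, 20.8 and 18.2 CPM in the 12 h controls and 19.6, 25.9 and 20.8 CPM in the 12 h mutants. The 14 h values were 30.9, 23.5 and 26.4 CPM in controls and 19.6, 25.6 and 27.2 CPM in mutants. Groups overlapped, with genotype effects of 0.15 (interval -0.28 to 0.58) and -0.16 (-0.58 to 0.26). EMC8-9, the least abundant, read 0.897, 1.01 and 1.04 CPM in the 12 h controls and 0.801, 0.859 and 2.58 CPM in the 12 h mutants, then 1.59, 2.41 and 2.22 CPM in the 14 h controls and 2.14, 1.43 and 3 CPM in the 14 h mutants. It passed no test.

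EMC10, EMC1 and EMC6 changed with time. EMC10, a lumenal subunit, read 7.04, 11.5 and 9.86 CPM in the 12 h controls and 9.94, 10.9 and 11 CPM in the 12 h mutants, and 3.17, 5.02 and 5.22 CPM in the 14 h controls and 3.47, 4.62 and 5.15 CPM in the 14 h mutants. All 14 h libraries lay below all 12 h libraries. It fell by 1.08 in controls (SE 0.26, edgeR adjusted p = 0.00516) and by 1.26 in mutants (SE 0.26, adjusted p = 0.00193). EMC1, the largest subunit, read 4.87, 8.22 and 9.17 CPM in the 12 h controls and 11.9, 12.9 and 11.6 CPM in the 12 h mutants. At 14 h EMC1 read 5.85, 5.86 and 6 CPM in controls and 7.96, 8.02 and 5.06 CPM in mutants. It fell in mutants by 0.79 (SE 0.25, adjusted p = 0.022), while the 12 h mutants lay above the 12 h controls by 0.72 (adjusted p = 0.077), and by 0.42 without the 12 h control replicate 1 (adjusted p = 0.252).

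EMC6, a membrane subunit, had 2 to 21 counts a library. It read 0.768, 0.577 and 0.346 CPM in the 12 h controls and 1.92, 0.43 and 1.94 CPM in the 12 h mutants. At 14 h EMC6 read 1.09, 1.88 and 2.33 CPM in controls and 0.918, 1.32 and 1.69 CPM in mutants. The 14 h controls lay above the 12 h controls, and it rose there by 1.58 (SE 0.57, edgeR adjusted p = 0.0413), a call lost in 11 of 20 alternatives. EMC3, EMC4 and EMC5 had 2 to 33 counts a library and passed no test, with genotype effects between -0.03 and 0.61. EMC4 shares 37.7% of its exon length with CG33170 on the opposite strand, and the strand setting of the counting is not given in the sources used here.

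**Figure D5:**
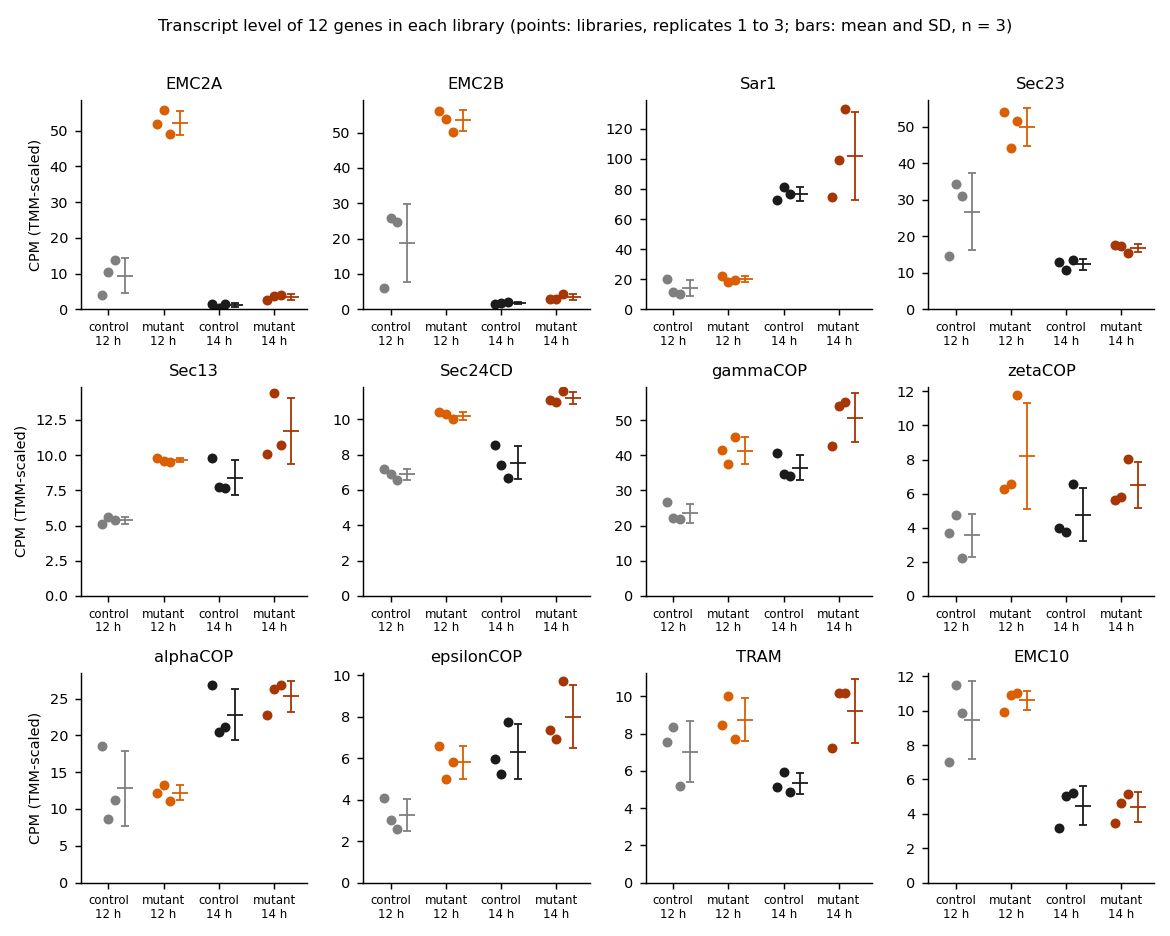
CPM of 12 of the 34 genes in each of the 12 libraries (points), with the mean and SD of the 3 libraries of a group beside them. EMC2A and EMC2B stand at 49 CPM or more in the 12 h mutants and at 4.4 CPM or less in every 14 h library, and Sar1 is at 72.4 CPM or more in every 14 h library.

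In the COPII coat, Sec23, Sec13 and Sec24CD were higher in the 12 h mutants, and Sar1 and Sec23 moved in opposite directions with time. Sec23 activates the GTPase Sar1 and forms the inner coat with Sec24. It read 14.7, 34.2 and 31.1 CPM in the 12 h controls and 54, 44.1 and 51.6 CPM in the 12 h mutants. At 14 h Sec23 read 12.9, 10.7 and 13.5 CPM in controls and 17.5, 17.3 and 15.5 CPM in mutants. Mutants lay above controls at both times. The 12 h difference was 0.91 (1.87-fold, SE 0.26, edgeR adjusted p = 0.0324) and dropped to 0.55 without the 12 h control replicate 1, the lowest library of its time (adjusted p = 0.0439). It did not pass when any of the 12 h mutant libraries was left out, or without both gut-high libraries (0.85, adjusted p = 0.124). With time Sec23 fell by 1.11 in controls (SE 0.26, adjusted p = 0.00477), by 1.47 without that control, and by 1.57 in mutants (SE 0.26, adjusted p = 0.000454).

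Sar1, the GTPase that starts the coat, read 20.5, 11.8 and 10.4 CPM in the 12 h controls and 22.4, 18.3 and 19.7 CPM in the 12 h mutants. In the 14 h controls the values were 72.4, 81.4 and 76.5 CPM, and in the 14 h mutants 74.8, 99.4 and 133 CPM. All 14 h libraries stood well above all 12 h libraries, and genotypes overlapped at each time. It rose by 2.42 in controls (5.36-fold, SE 0.27, edgeR adjusted p = 2.73e-05) and by 2.35 in mutants (5.09-fold, SE 0.27, adjusted p = 3.6e-05), under all 20 alternatives. Per length, the ratio of Sar1 to Sec23 was 2.16, 0.538 and 0.518 for controls at 12 h, against 0.646, 0.646 and 0.593 for mutants. At 14 h it was 9.79 ± 1.79 for controls and 9.67 ± 3.45 for mutants (SD, n = 3). Only replicate 1 of the 12 h controls lay above the 12 h mutants, and the others lay below them.

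The Sec24 paralogs, the cargo-binding subunits of the inner coat, differed from each other. Sec24CD read 7.17, 6.92 and 6.58 CPM in the 12 h controls and 10.4, 10.3 and 10 CPM in the 12 h mutants, and 8.52, 7.43 and 6.66 CPM in the 14 h controls and 11.1, 11 and 11.6 CPM in the 14 h mutants. Mutants were above controls in every library, by 0.57 at both times (1.48-fold and 1.49-fold, SE 0.17, edgeR adjusted p = 0.0414 and 0.0336). These calls lie near the threshold and were lost in 19 of 20 alternatives at 12 h and 12 of 20 at 14 h, with effects of 0.53 to 0.58 and 0.49 to 0.67 when single libraries were left out. Sec24AB read 153, 114 and 126 CPM in the 12 h controls and 140, 139 and 108 CPM in the 12 h mutants, and 161, 162 and 159 CPM in the 14 h controls and 139, 140 and 126 CPM in the 14 h mutants. It passed no test, at -0.03 (interval -0.39 to 0.33) and -0.25 (-0.61 to 0.11). Per length, Sec24AB was 18.6 ± 2.37 times Sec24CD in the 12 h controls and 12.2 ± 1.51 times in the 12 h mutants, and 21 ± 2.48 against 11.7 ± 0.993 times at 14 h (SD, n = 3). This ratio, formed after the values were seen, did not overlap between genotypes at either time, and 10.3% of the exon length of Sec24CD and 9.9% of that of Sec24AB is shared with genes on the opposite strand.

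Of the outer coat, Sec13 read 5.12, 5.63 and 5.36 CPM in the 12 h controls and 9.78, 9.59 and 9.51 CPM in the 12 h mutants. By 14 h the controls were at 9.81, 7.74 and 7.66 CPM and the mutants at 10.1, 14.4 and 10.7 CPM. The 12 h groups were far apart and the 14 h groups nearly met. Sec13, which also serves in nuclear pores, was higher by 0.84 at 12 h (1.79-fold, SE 0.2, edgeR adjusted p = 0.0152), a call lost only when just these groups were fitted (adjusted p = 0.0687). It rose in controls by 0.65 (SE 0.2, adjusted p = 0.0207), a call lost in 6 of 20 alternatives. Its partner Sec31 read 7.43, 8.66 and 10.2 CPM in the 12 h controls and 10.7, 10.2 and 11.6 CPM in the 12 h mutants, and 7.53, 7.53 and 6.44 CPM in the 14 h controls and 8.26, 7.47 and 6.74 CPM in the 14 h mutants. Sec31 passed no genotype test, at 0.31 and 0.06, and fell in mutants by 0.53 (SE 0.19, adjusted p = 0.0351), a call lost in 9 of 20 alternatives, with -0.02 for library size alone.

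In the COPI coat, gammaCOP and zetaCOP were higher in the 12 h mutants, and no subunit passed at 14 h. gammaCOP, which binds the GTPase Arf1, read 26.6, 22.1 and 21.8 CPM in the 12 h controls and 41.5, 37.4 and 45.2 CPM in the 12 h mutants. Values of 40.6, 34.7 and 34.1 CPM followed in the 14 h controls and of 42.6, 54.1 and 55.3 CPM in the 14 h mutants. Groups were apart at both times. The difference was 0.81 at 12 h (1.76-fold, SE 0.17, edgeR adjusted p = 0.00614), lost only when just these groups were fitted (adjusted p = 0.0655), and 0.47 at 14 h (adjusted p = 0.069). In controls gammaCOP rose by 0.63 with time (SE 0.16, adjusted p = 0.00798).

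The partner of gammaCOP in the coat's inner layer, zetaCOP, read 3.71, 4.76 and 2.25 CPM in the 12 h controls and 6.25, 6.59 and 11.8 CPM in the 12 h mutants, and 3.96, 3.77 and 6.55 CPM in the 14 h controls and 5.61, 5.83 and 8.05 CPM in the 14 h mutants. The groups were apart at 12 h and overlapped at 14 h. The 12 h difference was 1.18 (2.27-fold, SE 0.36, edgeR adjusted p = 0.0416). It ran from 0.82 to 1.42 with single libraries left out, and the call was lost in 12 of 20 alternatives.

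The outer-layer subunit alphaCOP read 18.6, 8.66 and 11.2 CPM in the 12 h controls and 12.2, 13.2 and 11.1 CPM in the 12 h mutants, and 26.8, 20.5 and 21.1 CPM in the 14 h controls and 22.8, 26.3 and 26.9 CPM in the 14 h mutants. Genotypes overlapped and times did not. It rose by 0.82 in controls (SE 0.25, edgeR adjusted p = 0.017), a call lost in 3 of 20 alternatives, and by 1.06 in mutants (SE 0.25, adjusted p = 0.00419). Its partner epsilonCOP read 4.1, 3.03 and 2.6 CPM in the 12 h controls and 6.57, 5.01 and 5.81 CPM in the 12 h mutants, and 5.95, 5.23 and 7.77 CPM in the 14 h controls and 7.34, 6.92 and 9.74 CPM in the 14 h mutants. It rose in controls by 0.95 (SE 0.26, adjusted p = 0.011), and its 12 h genotype difference was 0.82 (adjusted p = 0.0546).

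Of the remaining inner-layer subunits, betaCOP read 23.7, 29.3 and 29.8 CPM in the 12 h controls and 31.9, 39.1 and 38.9 CPM in the 12 h mutants, and 20.5, 20.7 and 18.9 CPM in the 14 h controls and 26.4, 31.3 and 26.2 CPM in the 14 h mutants. Mutants lay above controls at both times, by 0.41 (edgeR adjusted p = 0.103) and 0.48 (adjusted p = 0.0611). On the TMM scale betaCOP fell in controls by 0.46 (SE 0.16, adjusted p = 0.035), and with library size alone its change was 0.07, the opposite sign. deltaCOP, the most abundant per length, read 32.5, 25.5 and 23.2 CPM in the 12 h controls and 29.6, 32.8 and 27.9 CPM in the 12 h mutants, and 31.1, 28.8 and 29 CPM in the 14 h controls and 32.8, 38.8 and 29.5 CPM in the 14 h mutants. It passed no test, with genotype effects of 0.15 (interval -0.24 to 0.55) and 0.19 (-0.2 to 0.57).

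Genes of the same pathway outside the 34 were counted from 5 lists. Between genotypes 4.35% to 23.1% of a list were called at 12 h and 4.35% to 20% at 14 h. Of all tested genes 15.8% and 15.2% were called at these times. Of 6 other coat genes and COPI regulators, 1 was higher in mutants at each time. At 12 h it was beta'COP, the seventh COPI subunit, with 11, 11.5 and 8.48 CPM in controls and 15.7, 17.3 and 16.6 CPM in mutants (0.67, SE 0.2, edgeR adjusted p = 0.0387), a call lost in 13 of 20 alternatives. At 14 h it was Arf1, the GTPase that recruits COPI, with 140, 139 and 196 CPM in controls and 235, 262 and 310 CPM in mutants (0.76, SE 0.19, adjusted p = 0.0147), a call lost in 4 of 20. Of 10 translocon partners and signal peptidase genes, twr, a signal peptidase subunit, was higher at 12 h (0.83), and Tapdelta, a subunit of the translocon-associated complex, and Spase12, of the signal peptidase, were higher at 14 h (0.8 and 0.86). Those 3 calls were lost in 9, 4 and 13 of 20 alternatives. With time 1 of this list rose and 3 fell in controls, and 4 rose and 4 fell in mutants. That is 40% and 80% of the list, against 43.2% and 45.1% of all tested genes. Trp1, the fly gene for the channel partner Sec62, fell in both genotypes, by 1.43 and 1.76.

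Of 13 ER exit and cargo receptor genes, 2 were higher and 1 lower in mutants at 12 h. Sec16, which organizes ER exit sites, and p24-1, a cargo receptor of the p24 family, were higher by 0.95 and 0.79, calls lost in 6 and 5 of 20 alternatives, and opm, of the same family, was lower by 1.17. At 14 h cni, a cargo receptor for growth factors, and p24-1 were higher by 1.44 and 0.8. In this list 1 gene rose and 9 fell with time in controls, and 0 rose and 8 fell in mutants. These are 76.9% and 61.5% of the list, where 43.2% and 45.1% of all tested genes were called. cni fell by 3.03 in controls and by 2.59 in mutants, CHOp24 by 1.6 and 1.56, and Surf4 by 1.11 and 1.4, while Sec16 rose in controls by 1.19.

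Of 23 Golgi SNAREs and tethers, Golgin97 was lower in mutants at both times, by 1.46 at 12 h and 0.76 at 14 h (edgeR adjusted p = 0.00057 and 0.0152), and no gene was higher. With time 8 rose and 2 fell in controls, and 6 rose and 3 fell in mutants. These shares, 43.5% and 39.1% of the list, lie near the 43.2% and 45.1% of all tested genes. The SNARE Bet1 fell by 3.1 in controls and by 2.13 in mutants, and Cog3, a tether subunit, rose by 0.91 and 0.96.

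Among 8 regulators of secretion, fkh was higher in mutants at 12 h (1.63) and Atf6 lower at 14 h (-0.63, a call lost in 7 of 20 alternatives). fkh read 3.84, 3.03 and 2.08 CPM in the 12 h controls and 16.7, 6.01 and 5.48 CPM in the 12 h mutants. The highest was the gut-high replicate 1, without which the difference was 0.93 (edgeR adjusted p = 0.0551). CrebA, a factor known in flies to raise secretory pathway genes, read 26.9, 10.7 and 14.2 CPM in the 12 h controls and 33.3, 43.8 and 24 CPM in the 12 h mutants. At 14 h CrebA read 70.6, 74.2 and 58.8 CPM in controls and 56.4, 65.9 and 64 CPM in mutants. Genotypes overlapped at both times, at 0.96 (edgeR adjusted p = 0.0505) and -0.13 (adjusted p = 0.832). At 12 h only the control replicate 1, which stands apart, overlapped the mutants, and the other controls lay below all of them. CrebA rose with time by 1.97 in controls and by 0.88 in mutants. Xbp1, a factor of the unfolded protein response, fell by 1.12 and 1.09 and gave genotype effects of 0.38 and 0.42 that did not pass. CrebA and Xbp1 thus moved in opposite directions with time on the TMM scale.

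Markers of other tissues moved with time as well. The summed level of the 8 fat body markers was 153 to 220 CPM in the 12 h controls, 141 to 254 in the 12 h mutants, 499 to 547 in the 14 h controls and 416 to 678 in the 14 h mutants. In controls 3 of 7 tested rose and in mutants 6 of 7, and Pepck1 was at 0 in every library. The 7 epidermis and trachea markers went the other way, with 360 to 599 and 560 to 774 CPM at 12 h in controls and mutants, and 72.3 to 95.7 and 191 to 303 CPM at 14 h. At 14 h the epidermis and trachea sums were thus also apart between genotypes, with 2 of 5 tested markers called higher in mutants. Sums of muscle (180 to 200 CPM in controls, 271 to 293 in mutants) and neuron markers (11.4 to 15.4, 24.8 to 29.6) were apart upward. Hemocyte sums (981 to 1030, 863 to 898) were apart downward, and fat body and imaginal sums overlapped. Single genes made most of some sums. In 14 h controls and mutants, the muscle marker bt averaged 161 and 254 CPM and the neuron marker elav 8.05 and 17.4 CPM. The hemocyte marker crq averaged 994 and 870 CPM. Of the tested markers, log2 fold changes lay above 0 for 6 of muscle and below for 2. For hemocytes 1 lay above and 3 below. The part of these tissues in the time changes and genotype differences of the 34 genes was not tested.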

How the data were processed

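Salivary gland RNA was measured in 12 libraries. The deposited table holds raw read counts per gene, not normalized. Per the submitters' processing notes, the authors' counts come from BDGP6, with DESeq2 1.30.1, featureCounts 1.6.3, STAR 2.7.6a and cutadapt 1.16 named as tools. Their roles, the strand setting, the annotation release and the treatment of multiply mapped reads are not given in the sources used here. Names were matched for 17710 of 17807 genes.

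Counts were filtered with filterByExpr over the 4 groups, scaled by TMM and fitted with edgeR 4.0.16 in R 4.3.3 as 4 group means, with 8 residual degrees of freedom and no block for replicate numbers. Same-numbered libraries of different groups, 18 pairs, correlated at -0.257 to 0.238 once group means were removed. No consistent pairing by number was seen, which does not exclude one. Counts with a replicate block are given below. Genes with an adjusted p under 0.05 were called. Intervals are the log2 fold change plus or minus a t quantile times the standard error and are approximate. Lengths are unions of annotated exons. The steps were tested on simulated data.

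Alternatives were DESeq2 1.42.0, fitting the compared groups only, a replicate block, leaving out each library or both libraries high in gut-type genes, testing without the filter, and 3 other scalings: library size alone, RLE size factors, and TMM after removal of the 20 most abundant genes. Every member may be named. Values in every library are given for members called in any comparison or highest or lowest per length of their machine. Of the related lists, CrebA, Xbp1, Atf6, beta'COP and up to 4 called genes with the smallest p may be named. Marker genes may be named when called or highest in their list, and not every such gene is named. The members and lists were chosen with earlier results of these data known, and LManII, mesh, Sgs3, sage, betaTry, Pepck1 and the neighbours of EMC2A and EMC2B were named after their values were seen. A planned search of promoters for a CrebA-type motif was not run.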

Additional observations from a re-analysis of the deposited data

How the results depend on the processing

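Across the alternatives for the 34 genes in the 5 comparisons, 3167 values kept their side of the threshold without a change of sign in a called value, 138 calls no longer passed, 55 passed newly and 1 called value changed sign. At 12 h, 7 members were called between genotypes, 4 to 7 with single libraries left out (4 without the 12 h mutant replicate 3 or the 14 h control replicate 1), 1 when only the compared groups were fitted and 4 without both libraries high in gut-type genes. EMC2A passed under all 20 alternatives. At 14 h the count of 3 ran from 0 to 5 with single libraries left out, and was 1 with library size alone, 1 with no filter, 9 with the compared groups only and 0 without both gut-high libraries. It was 0 without any one of the 14 h control replicates 2 and 3 and the 14 h mutant replicates 2 and 3, 1 without the 12 h control replicate 2 or the 14 h control replicate 1, and 5 without the 12 h control replicate 1. With time, 12 members were called in controls (7 to 14 with single libraries left out, 7 without the 12 h control replicate 2 or 3; 8 without a filter) and 9 in mutants (7 to 10; 17 with library size alone). Library size alone reversed betaCOP in controls (0.07), the hemocyte marker crq in controls (0.0) and Atf6 in mutants (0.03). The difference of the genotype effects called 0 members under every setting run. With the replicate block, 5, 2, 11, 7 and 0 members were called at 12 h, at 14 h, over time in controls, over time in mutants and for the difference of effects. Over all genes, the 12 h genotype comparison called 1199 genes, 798 without the 12 h mutant replicate 1, 677 without both gut-high libraries and 459 with the compared groups only. The 14 h comparison called 1153, 2128 with the compared groups only and 701 to 1586 with single libraries left out. The difference of effects called 206, 105 to 430 with single libraries left out (430 without the 12 h control replicate 1), 84 without both gut-high libraries and 338 with DESeq2. It was not fitted with the compared groups only. Genes with few counts, EMC3 to EMC6, EMC8-9 and Sec61gamma, have wide intervals, which limits what could be detected for them at this depth.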
